A study of Saccharomyces cerevisiae with 18 samples.

Results

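The comparison concerned *hcm1-3N* cells and wild type (WT) cells of budding yeast growing in medium with LiCl, and within it the genes that are not direct targets of Hcm1. It rested on 6 of the 18 mRNA libraries of the series, 3 from WT and 3 from *hcm1-3N* cultures. The count table listed 7126 genes, and the 7030 that remained after taking out the 96 published Hcm1 targets used by the study were described. Both strains were haploid *MATa* cells of the BY4741 background with the alleles his3delta1, ura3delta0, leu2delta0 and lys2delta0, a genomic *HCM1* gene behind the *GAL1* promoter (HIS3MX6-GAL1p-HCM1-3HA-KanMX) and a GFP cassette on chromosome VI (ChrVIdelta181901-182001::Hyg-TEFp-GFP). They differed in a centromeric *URA3* plasmid, pRS316, that carried *HCM1-3V5* in WT and *hcm1-3N-3V5* in the mutant, each behind the *HCM1* promoter. Cultures came from galactose, were moved to dextrose so that the genomic copy was shut off, were kept without uracil to hold the plasmid, and were collected in log phase after 40 h with 150 mM LiCl, with a dilution at 24 h. All controls thus shared the shut-off genomic allele, the plasmid and its selection, and the cultures were not synchronized. Same-numbered WT and mutant cultures were treated as a pair, as laid out below.

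Hcm1 is a forkhead transcription factor that works in S phase, when it switches on genes for chromosome segregation and for the factors of later cell cycle stages. Phosphates placed by the cyclin-dependent kinase CDK control it in opposite ways: those at the N-terminus mark the protein for destruction, and those in the activation domain raise its activity. The 3N protein has alanines at the N-terminal sites and is stable, while its activation domain can still be phosphorylated. Lithium is toxic to yeast because it enters like sodium and blocks phosphatases of nucleotide and inositol metabolism. It also activates calcineurin, the calcium-dependent phosphatase that removes the phosphates from Hcm1. The comparison asked which transcripts other than the known targets differed between cells with stable and with normal Hcm1 once both had adapted to this stress.

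The libraries held between 21666864 and 21851012 gene counts each, and the 10 most abundant genes took 14.4% to 16.6% of them. *HCM1* itself stood at 348, 471 and 378 CPM (counts scaled to a common, normalized library total) in WT replicates 1, 2 and 3 and at 217, 221 and 314 CPM in *hcm1-3N* replicates 1, 2 and 3. The mutant transcript was thus the less abundant, with no overlap between the strains (log2 fold change -0.68 ± 0.13 SE, adjusted p = 0.0129 by edgeR's quasi-likelihood test). It did not pass without WT replicate 2, *hcm1-3N* replicate 1 or *hcm1-3N* replicate 2 (adjusted p = 0.0982, 0.085 and 0.0748), and its log2 fold change lay between -0.86 and -0.52 in the 6 fits that left out 1 library. *URA3*, the marker on the same plasmid, had a log2 fold change of -0.47 ± 0.15 (adjusted p = 0.0998), and the part of the plasmid in the *HCM1* difference was not tested. The counts cannot tell the alleles apart, so they do not check the mutation. *LEU2* and *LYS2*, deleted in both strains, had 0 counts in every library, and the *MATa* markers *MFA1*, *MFA2*, *STE2*, *BAR1* and *ASG7* were all detected. Of these 5, none passed the test, and *STE2* ranged from 593 to 678 CPM in WT and from 572 to 797 CPM in the mutant. *HIS3*, which carries the his3delta1 allele in both strains, was lower in the mutant (-0.65 ± 0.12, adjusted p = 0.0087), and the origin of its reads was not tested. *GAL1* lay between 6.01 and 7.58 CPM in the 6 libraries.

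Cultures that shared a replicate number deviated together. The correlation over genes of their deviations from the group means was 0.89, 0.72 and 0.54 for pairs 1, 2 and 3, and it averaged 0.52 for same-numbered and -0.22 for different-numbered cultures of all groups. Replicate 1 stood apart, since replicates 2 and 3 also resembled each other. The correlation was 0.69 for WT 2 against *hcm1-3N* 3 and 0.70 for WT 3 against *hcm1-3N* 2, above the 0.54 of pair 3. The values thus set replicate 1 apart and do not show that replicates 2 and 3 pair by number. Deviations from a mean of 3 cultures sum to 0, which pulls different-numbered correlations below 0. The replicate number entered the model as a block by the rule of this work, so that each difference was read within pairs. The labels call the cultures replicates without saying what a number shares.

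Of the 6143 genes outside the target list with enough counts to test, 187 (3.04%) differed between *hcm1-3N* and WT in LiCl at an adjusted p under 0.05, 116 (1.89%) being lower and 71 (1.16%) higher in the mutant. Most differences were small. The 187 genes had a median absolute log2 fold change of 0.56, against 0.11 for all genes tested, and 17 of them changed by more than 2-fold (12 higher, 5 lower). The sign was the same in 3 of 3 pairs for 186 of the 187 genes, and CPM of the strains did not overlap for 170, where 686 of the 6143 genes (11.2%) had no overlap. Both counts follow largely from the test, which chose the genes on these same cultures. The share of all genes with the same sign in 3 of 3 pairs is not given here. Of the 96 targets, 3 passed the same test. Since RNA came from whole cultures, fewer cells in a given state and less RNA per cell cannot be told apart.

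The number of genes called rested on few cultures. Without the block 44 genes (0.716%) passed, each of them among the 187. Leaving out 1 of the 6 libraries left 27 (WT replicate 2), 40 (WT replicate 1), 50 (*hcm1-3N* replicate 1), 61 (*hcm1-3N* replicate 2), 92 (WT replicate 3) or 215 genes (*hcm1-3N* replicate 3), and all 187 genes kept their direction in each of these fits. Leaving out a whole pair left 120 genes (pair 1), 1 gene (pair 2) or 24 genes (pair 3).

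Transcripts of amino acid synthesis were lower in *hcm1-3N*, mainly in pairs 1 and 2. Of 55 genes in a list of amino acid synthesis, many of them known targets of the activator Gcn4 and with *GCN4* and the regulators *LEU3* and *LYS14* among them, 17 were lower in *hcm1-3N* and none higher, and 54 of the 55 had a negative log2 fold change. The 17 genes were 30.9% of the list, where 1.89% of all genes tested were lower. The median was -0.26, where that of all genes tested was -0.01. Among the 17 were genes of arginine (*ARG1*, *ARG5,6*, *ARG7*, *ARG8* and *ORT1*), lysine (*LYS1* and *LYS20*), leucine and the branched amino acids (*LEU4* and *ILV6*), threonine and methionine precursors (*HOM3*), the aromatic amino acids (*ARO1*, *TRP3*, *TRP4*, *TRP5* and *TYR1*) and asparagine (*ASN1*). *LYS20*, which encodes homocitrate synthase at the start of lysine synthesis, fell from 469, 384 and 335 CPM in WT to 229, 188 and 263 CPM in the mutant (log2 fold change -0.79 ± 0.17, adjusted p = 0.0228). Every mutant culture was below every WT culture. *LYS1*, for the last enzyme of that pathway, stood at 154, 153 and 142 CPM in WT and at 66.5, 81.3 and 114 CPM in *hcm1-3N* (-0.78 ± 0.16, adjusted p = 0.021). *ARG1*, argininosuccinate synthetase, had 2049, 1858 and 1556 CPM in WT and 1044, 975 and 1303 CPM in the mutant (-0.72 ± 0.17, adjusted p = 0.0385). The third mutant culture was the nearest to WT. In none of the 17 genes did the strains overlap, which follows largely from the test that chose them, as 170 of all 187 called genes had no overlap. In 23 of the 55 listed genes every mutant culture was below every WT culture, as in 386 of all 6143 genes tested. *ASN1*, for asparagine synthetase, showed an even fall over the pairs, from 964, 787 and 750 CPM to 639, 570 and 490 CPM (-0.55, adjusted p = 0.0146).

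The fall in this group was larger in pairs 1 and 2 than in pair 3. The median log2 difference over the 55 genes was -0.48 in pair 1, -0.39 in pair 2 and -0.09 in pair 3, and 54, 50 and 32 of the 55 genes were lower in the mutant. In pair 3 the median of all 6143 genes tested was -0.03, and 3346 of them were lower. The shift of the list as a whole in pair 3 was thus close to that of all genes. *GCN4* mRNA itself stood at 1343, 1270 and 1101 CPM in WT and at 1091, 1067 and 1212 CPM in *hcm1-3N*, so the strains overlapped (-0.13 ± 0.10, adjusted p = 0.628). Gcn4 is mainly controlled at translation, which these libraries do not measure. Without the block 4 of the 17 genes passed, and leaving out 1 library left between 0 and 26 lower genes in the list: 0 without WT replicate 1, WT replicate 2 or *hcm1-3N* replicate 1, 4 without *hcm1-3N* replicate 2, 11 without WT replicate 3 and 26 without *hcm1-3N* replicate 3. The median stayed between -0.39 and -0.20 in these 6 fits.

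Gcn4 binds the letters TGACTC. Promoter windows, from 250 bases before to 50 after each start codon, were read from the R64 reference genome (RefSeq) and searched on both strands. The letters occurred in the windows of 11 of the 17 lower amino acid genes (64.7%), of 29 of 113 lower genes with a window (25.7%), of 3 of 63 higher genes (4.76%) and of 479 of all 6001 protein-coding genes with one (7.98%). The 11 genes are among the 29. Because the list holds many known Gcn4 targets, a high share in it was set in part by the choice of list. The share among the genes of the list that did not pass was not computed. Of the 17 genes, *ARG1*, *HOM3*, *LYS20*, *TRP5* and *TYR1* were among those with none in this window. The match nearest the start is shown for each of the 11 genes, because these are the genes of the group that carry the letters. The stretches read 5′ to 3′ on the gene's own strand, with TGACTC, or GAGTCA where it lies on the other strand, in capitals.
ARG5,6 (chrV:295221-295250, plus strand): ggtggtaattgaTGACTCttctattttttt
ARG7 (chrXIII:396514-396543, minus strand): ggacaggtaggaTGACTCactgcgtaattc
ARG8 (chrXV:58567-58596, plus strand): cagctcgctatgTGACTCacttaaagtaca
ARO1 (chrIV:704249-704278, plus strand): ttgtcatgcataTGACTCatcccgaacatg
ASN1 (chrXVI:822381-822410, plus strand): tcatgtaacattTGACTCattctgtaaact
ILV6 (chrIII:105681-105710, minus strand): tcaccgttatcgTGACTCactttctttcgc
LEU4 (chrXIV:426838-426867, minus strand): cttacgtgtaagTGACTCagttctttcaaa
LYS1 (chrIX:420853-420882, minus strand): ttcagcgacaaaGAGTCAtaaagtcatcct
ORT1 (chrXV:571021-571050, minus strand): agttctgcatcgTGACTCaccttgagctcg
TRP3 (chrXI:38259-38288, minus strand): tcaatggctcgtTGACTCattctaatctat
TRP4 (chrIV:1184570-1184599, plus strand): acctacgcagatTGACTCtctaaaaaatga
These genes were picked for display after their values were seen, and a match in letters is a description and was not measured as binding.

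Genes of sulfate assimilation and methionine metabolism were lower as well. In this list 7 of 34 genes were lower (20.6%, where 1.89% of all genes tested were) and none higher (median -0.29, 31 of 34 negative). The 7 were *MET10*, *MET13*, *MET16*, *MET17*, *MET28*, *SAM3* and *SUL1*. *SUL1*, the high-affinity sulfate permease, showed the largest fall of all genes outside the targets. It measured 27.9, 18.01 and 12.4 CPM in WT and 7.69, 7.22 and 7.89 CPM in *hcm1-3N*, a 2.46-fold lower level (-1.30 ± 0.27, adjusted p = 0.0233). The mutant cultures were alike while the WT cultures spread. *MET16*, which encodes PAPS reductase, fell by a like amount in every pair, from 50.7, 41.3 and 36.3 CPM to 32.9, 27.4 and 23.0 CPM (-0.62 ± 0.11, adjusted p = 0.00964). *MET17*, the O-acetylhomoserine sulfhydrylase that joins sulfide to the carbon chain, went from 1130, 948 and 863 CPM to 717, 614 and 602 CPM (-0.60 ± 0.14, adjusted p = 0.0325). *MET28*, a cofactor of the activator Met4, had a log2 fold change of -0.71 (adjusted p = 0.0225), and *MET4* one of -0.23 that did not pass (adjusted p = 0.256). *MET3* and *MET14*, for the first enzymes of sulfate activation, had log2 fold changes of -0.07 and -0.45 and did not pass. The median fall was similar in the 3 pairs (-0.32, -0.28 and -0.34). Leaving out 1 library left 0 lower genes without WT replicate 1 or *hcm1-3N* replicate 2, 1 without WT replicate 2, 3 without *hcm1-3N* replicate 1, 4 without WT replicate 3 and 6 without *hcm1-3N* replicate 3, and 1 passed without the block. *SUL1* passed without WT replicate 3 or *hcm1-3N* replicate 3 but not without any other 1 library (adjusted p between 0.0824 and 0.122).

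The letters CACGTG, bound by Cbf1 at sulfur genes and by Pho4 at phosphate genes, were in the windows of 3 of these 7 genes (42.9%), against 2.92% of all protein-coding genes. As the list gathers sulfur genes, this share too was set in part by the choice of list. The 3 genes are shown in the same way, since *SUL1*, *MET13*, *MET17* and *SAM3* had no match in the window.
MET10 (chrVI:213069-213098, plus strand): agcttatagaagCACGTGaccacaattcac
MET16 (chrXVI:877793-877822, minus strand): ttatcatcatttCACGTGgctagtaaaaga
MET28 (chrIX:384321-384350, minus strand): gggtactgagtgCACGTGacttattttttt
The windows of *MET16* and *MET28* each also held TGACTC.

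**Figure D1:**
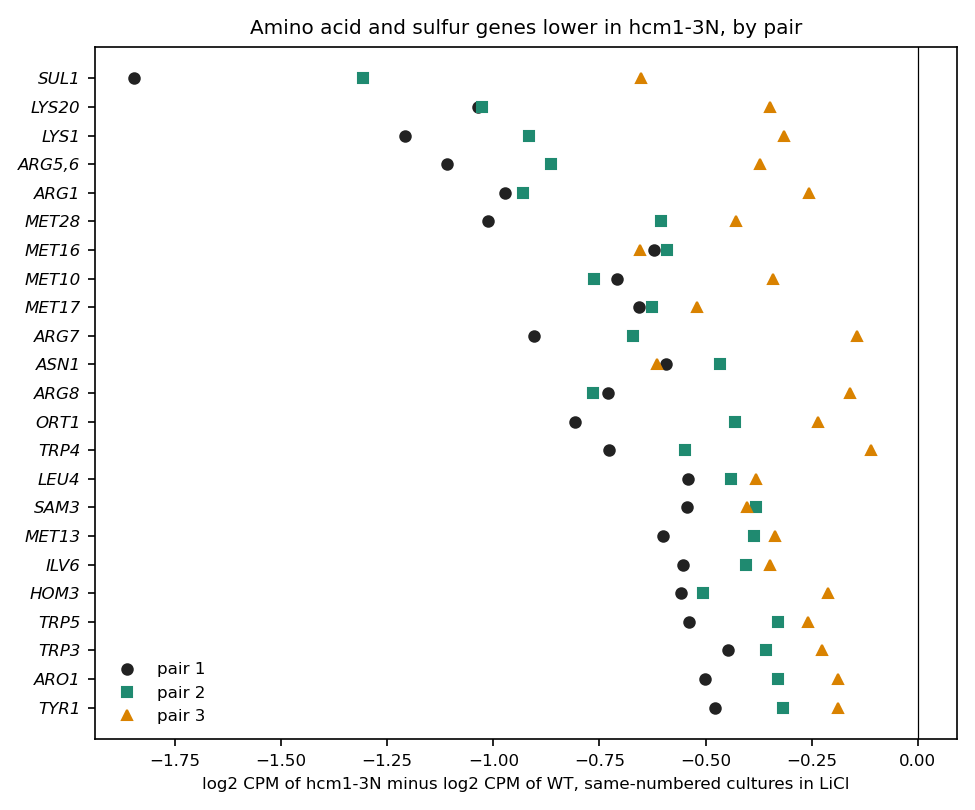
Log2 CPM of *hcm1-3N* minus log2 CPM of WT (horizontal axis) in each same-numbered pair of cultures for 16 of the amino acid genes and the 7 sulfur genes that were lower in *hcm1-3N* (vertical axis). Black circles are pair 1, green squares pair 2 and orange triangles pair 3. All points lie below 0, and for most amino acid genes the point of pair 3 is nearest to it.

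Some genes for enzymes that break down or reduce amino acid derived compounds were lower too. Of 17 genes in this list 5 were lower (29.4%, where 1.89% of all genes tested were) and none higher (median -0.20). The median was -0.38 in pair 1, -0.39 in pair 2 and 0.03 in pair 3, with 15, 16 and 8 of the 17 genes negative. The shift was thus absent in pair 3. Without the block 2 genes passed, and in control medium 1 was lower (median -0.07). *BAT2*, the cytosolic branched-chain aminotransferase, measured 245, 247 and 203 CPM in WT and 165, 157 and 147 CPM in the mutant (-0.56 ± 0.09, adjusted p = 0.0041). It passed whichever 1 library was left out. The others were *ARO8*, an aromatic aminotransferase, the alcohol dehydrogenase gene *ADH6*, and *AAD4* and *AAD16*, 2 members of the aryl-alcohol dehydrogenase family whose copies are nearly identical, so that reads may be divided among them. Leaving out 1 library left between 1 and 5 of these genes.

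Among other nutrient genes, *SNZ1*, for vitamin B6 synthesis, fell from 480, 516 and 350 CPM to 218, 240 and 257 CPM (-0.88 ± 0.19, adjusted p = 0.0262). *ZPS1*, a cell surface protein gene of the zinc response, stood at 255, 170 and 118 CPM in WT and at 94.0, 85.9 and 79.9 CPM in *hcm1-3N* (-1.05 ± 0.25, adjusted p = 0.0471). For *SUL1*, *ZPS1* and *SNZ1* alike the difference was widest in pair 1 and narrowest in pair 3. *SNZ1* passed without 2 of the 6 libraries and *ZPS1* without 1 of them (adjusted p up to 0.132 and 0.188 otherwise).

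*SLT2* and some of the genes it is known to drive were lower, while others were not. Slt2 is the MAP kinase that responds to cell wall stress, and its transcription factor Rlm1 drives *SLT2* itself together with genes such as *PRM5*, *YPS3* and *CRH1*. *SLT2* measured 268, 293 and 251 CPM in WT and 150, 178 and 126 CPM in *hcm1-3N* (-0.84 ± 0.13, adjusted p = 0.00377), and it passed whichever 1 library was left out but not without the block (adjusted p = 0.0645). *PRM5*, a membrane protein gene, had 155, 137 and 116 CPM in WT and 74.2, 76.6 and 71.9 CPM in the mutant (-0.87 ± 0.16, adjusted p = 0.01). *YPS3*, for a cell surface aspartic protease, had 177, 188 and 162 CPM against 96.9, 95.1 and 88.1 CPM (-0.91 ± 0.20, adjusted p = 0.032). For these 3 genes the strains were clearly apart in each pair. *CRH1*, a chitin transglycosylase gene, had a log2 fold change of -0.63 (adjusted p = 0.0471) and passed in none of the 6 fits that left out 1 library. *PRM5* did not pass without WT replicate 1, *hcm1-3N* replicate 1 or *hcm1-3N* replicate 2 (adjusted p between 0.0526 and 0.0655). *RLM1* and its targets *PST1*, *PIR3* and *KDX1* did not pass, with log2 fold changes of -0.41, -0.05, -0.42 and -0.18.

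Within the whole cell wall list of 58 genes, 5 were lower (*CHS1*, *CRH1*, *SCW10*, *SLT2* and *YPS3*) and 2 higher, with a median of -0.11. Called genes made up 12.1% of the list, against 3.04% of all genes tested, and without the block 1 lower gene passed. In control medium 15 genes of the list were higher and 4 lower, with a median of 0.13. In LiCl the higher genes were *WSC4*, of the Wsc sensor family, and *CWP2*, a mannoprotein of the wall. *WSC4* stood at 20.4, 25.3 and 30.6 CPM in WT and at 78.5, 36.2 and 69.9 CPM in the mutant (1.27 ± 0.31, adjusted p = 0.0489). The second mutant culture was close to WT, and the gene passed only without *hcm1-3N* replicate 2 among the fits that left out 1 library (adjusted p between 0.105 and 0.204 in the other 5). *CWP2* had 4844, 5346 and 6116 CPM in WT and 6616, 8785 and 9317 CPM in *hcm1-3N* (0.58 ± 0.14, adjusted p = 0.0385). Leaving out 1 library left 1 to 4 lower and 0 or 1 higher genes in this list, and *YPS3* passed in none of these 6 fits (adjusted p between 0.0784 and 0.131). *CWP2* passed in none of them either.

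Some genes known from the DNA damage response were among the lower transcripts. They were chosen after their values were seen, so they are single examples from which no count or direction of a group is read. *HUG1*, an inhibitor of ribonucleotide reductase that the checkpoint induces, had 15.9, 13.2 and 15.0 CPM in WT and 6.66, 7.31 and 8.51 CPM in *hcm1-3N*, a 1.96-fold lower level (-0.97 ± 0.12, adjusted p = 0.00125). It passed whichever 1 library was left out, and the replicates of each strain lay close together. Also lower were *RAD53* and *DUN1*, which encode checkpoint kinases (-0.56 and -0.45), *RAD54*, of recombinational repair (-0.40), *RAD1*, for a nuclease subunit of excision repair (-0.35), and *PLM2*, a forkhead-associated domain gene induced by damage (-0.74). The ribonucleotide reductase genes *RNR1*, *RNR2*, *RNR3* and *RNR4* had log2 fold changes of -0.14, -0.26, -0.35 and -0.17 and did not pass. The list of 76 G1/S and DNA replication genes had 2 lower genes, *DUN1* and *SLD5*, for a subunit of the GINS complex, and none higher (median -0.10). That is 2.63% of the list called lower, where 1.89% of all genes tested were.

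*LDS2*, a gene of the spore wall lipid droplets, fell from 14.5, 11.6 and 9.12 CPM to 8.21, 5.17 and 4.38 CPM (-1.002 ± 0.15, adjusted p = 0.00372). *TBS1*, a zinc cluster protein gene, and *AFB1*, for the a-factor barrier protein, were among the lower genes with the smallest p (-0.74 and -0.64, adjusted p = 0.00372 for each). The 3 genes passed whichever 1 library was left out, but without the block *LDS2* and *TBS1* did not pass (adjusted p = 0.0917 and 0.0656).

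The largest rise was that of *MF(ALPHA)1*, which encodes the alpha-factor mating pheromone. It measured 5.39, 5.12 and 3.88 CPM in WT and 19.2, 18.3 and 24.7 CPM in *hcm1-3N*, a 4.27-fold higher level (2.10 ± 0.35, adjusted p = 0.00964). Every mutant culture was above every WT culture. In raw counts this was 119, 110 and 85 against 448, 403 and 513, so the gene was at a low level in both strains. It is normally silent in *MATa* cells, and the other *MATalpha* markers did not pass the test: *MF(ALPHA)2* had 25 to 41 counts in WT and 29 to 42 in the mutant, *SAG1* 38.5 to 39.3 CPM against 41.3 to 51.5 CPM, and *STE3* 8.87 to 11.1 CPM against 11.7 to 17.6 CPM. All 4 *MATalpha* markers listed here had a positive log2 fold change (median 0.35), as they did in each pair. In control medium 3 of the 4 passed: *MF(ALPHA)1* (1.81), *SAG1* (0.64) and *STE3* (0.41). The part of cells of the other mating type in this rise was not tested. *AFB1*, the a-factor barrier gene named above, was not in this marker list and went the other way (-0.64, adjusted p = 0.00372 by edgeR). *MF(ALPHA)1* did not pass without WT replicate 2 (adjusted p = 0.063) and passed without any other 1 library.

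Some genes of the mating program rose too. *FIG1*, a membrane protein of mating cells, went from 7.02, 5.86 and 4.605 CPM to 18.6, 14.9 and 18.95 CPM, a 3.00-fold higher level (1.59 ± 0.17, adjusted p = 0.000177). *AGA1* and *AGA2*, the anchor and the adhesive subunit of a-agglutinin, rose by 0.55 and 0.51 on the log2 scale (adjusted p = 0.0474 and 0.0321), and *PRM1*, for plasma membrane fusion, by 0.58 (adjusted p = 0.0322). In the list of 38 genes 4 were higher and 1, *PRM5*, lower (13.2% called, where 3.04% of all genes tested were). Without the block 1 higher and 1 lower gene of the list passed. The median of the list was 0.02, and *FUS1*, *SST2* and *STE12*, a fusion protein, a desensitizing GTPase activator and the transcription factor of the response, had log2 fold changes of 0.20, -0.02 and 0.08 and did not pass. *FIG1* passed in all 6 fits that left out 1 library, in which the list had 1 to 3 higher genes. *AGA1* passed in none of these 6 fits and *PRM1* in 1 of them.

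Some histone genes were higher. *HHT1* and *HHF1*, the divergent pair for histones H3 and H4 on chromosome II, and *HTA2*, for H2A, were higher, 3 of 17 genes outside the targets (median 0.03), and none was lower. This was 17.6% of the list, where 3.04% of all genes tested were called, and without the block 1 gene of it passed. *HHT1* stood at 340, 360 and 330 CPM in WT and at 519, 567 and 473 CPM in *hcm1-3N* (0.60 ± 0.11, adjusted p = 0.00964). *HHF1* had 375, 334 and 371 CPM against 467, 524 and 498 CPM (0.46 ± 0.11, adjusted p = 0.0313). The strains did not overlap for either gene. The second copies of the same proteins, *HHT2* and *HHF2*, had log2 fold changes of 0.13 and 0.04 and did not pass (adjusted p = 0.452 and 0.929). The copies code for the same protein and differ in bases, so reads with a mapping quality above 20 can be told apart only where they differ. *HHT1* did not pass without WT replicate 1, WT replicate 2 or *hcm1-3N* replicate 2 (adjusted p between 0.0513 and 0.0574), and without the block it had an adjusted p of 0.0311. *HHF1* passed in none of the 6 fits that left out 1 library, nor without the block (adjusted p = 0.0581).

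Of the nutrient uptake genes that rose, *OPT2*, an oligopeptide and glutathione transporter gene, went from 3.94, 5.91 and 5.33 CPM to 9.11, 12.6 and 14.8 CPM (1.26 ± 0.15, adjusted p = 0.000693). *PHO5*, the repressible acid phosphatase, went from 10.1, 14.4 and 13.5 CPM to 20.2, 22.6 and 27.0 CPM (0.87 ± 0.12, adjusted p = 0.00235). Both passed whichever 1 library was left out. *PHM6*, another phosphate-regulated gene, had 0.95 (adjusted p = 0.0198), while *PHO91* and *GIT1*, for vacuolar phosphate and glycerophosphoinositol transport, were lower (-0.28 and -0.63) and *PHO84*, the high-affinity phosphate transporter, did not pass (-0.21). The phosphate list thus had 2 higher and 2 lower genes of 28 (14.3% called, where 3.04% of all genes tested were), and without the block 1 higher gene of it passed. Of the 6 fits that left out 1 library, *GIT1* passed in none, *PHO91* in 1 and *PHM6* in 2.

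*OPI3*, a methyltransferase of phosphatidylcholine synthesis, rose from 992, 1359 and 1261 CPM to 1659, 2196 and 2377 CPM (0.78 ± 0.11, adjusted p = 0.0034). *BNA4* and *BNA5*, which make NAD from tryptophan, rose by 0.74 and 0.49 (adjusted p = 0.00898 and 0.0142), and *RIB3* and *RIB5* of riboflavin synthesis were lower (-0.29 and -0.48). *HSP26*, a small heat shock protein, went from 17.2, 30.2 and 31.7 CPM to 53.4, 72.9 and 72.3 CPM (1.37 ± 0.25, adjusted p = 0.0129). It was the only 1 of 42 chaperone genes to pass (2.38%, where 3.04% of all genes tested did). *SPO11*, the meiotic endonuclease, had 4.80, 5.398 and 5.74 CPM in WT and 8.51, 9.40 and 10.5 CPM in the mutant (0.83 ± 0.11, adjusted p = 0.00125), and *SPR3*, a sporulation septin, rose by 0.96 (adjusted p = 0.0457). The meiotic regulators *IME1*, *IME2* and *NDT80* did not pass. *OPI3*, *BNA4* and *SPO11* passed whichever 1 library was left out, though *OPI3* did not without the block (adjusted p = 0.34). *BNA5* passed in 4 of these 6 fits, and *RIB3* and *RIB5* in 1 each. *HSP26* did not pass without WT replicate 1, WT replicate 2 or *hcm1-3N* replicate 1 (adjusted p between 0.0694 and 0.0884), nor without the block (0.184), and *SPR3* passed only without *hcm1-3N* replicate 1 (0.0884 to 0.195 otherwise).

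Several larger differences did not pass. *INO1*, for inositol-3-phosphate synthase, averaged 158 ± 74.1 CPM (SD, n = 3) in WT and 624 ± 396 in *hcm1-3N* (1.83 ± 0.48, adjusted p = 0.0754 by edgeR). The biotin genes *BIO3* and *BIO4* averaged 33.0 ± 8.32 and 17.98 ± 2.23 CPM in WT and 121 ± 55.3 and 65.7 ± 20.9 in the mutant (adjusted p = 0.194 and 0.102 by edgeR).

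**Figure D2:**
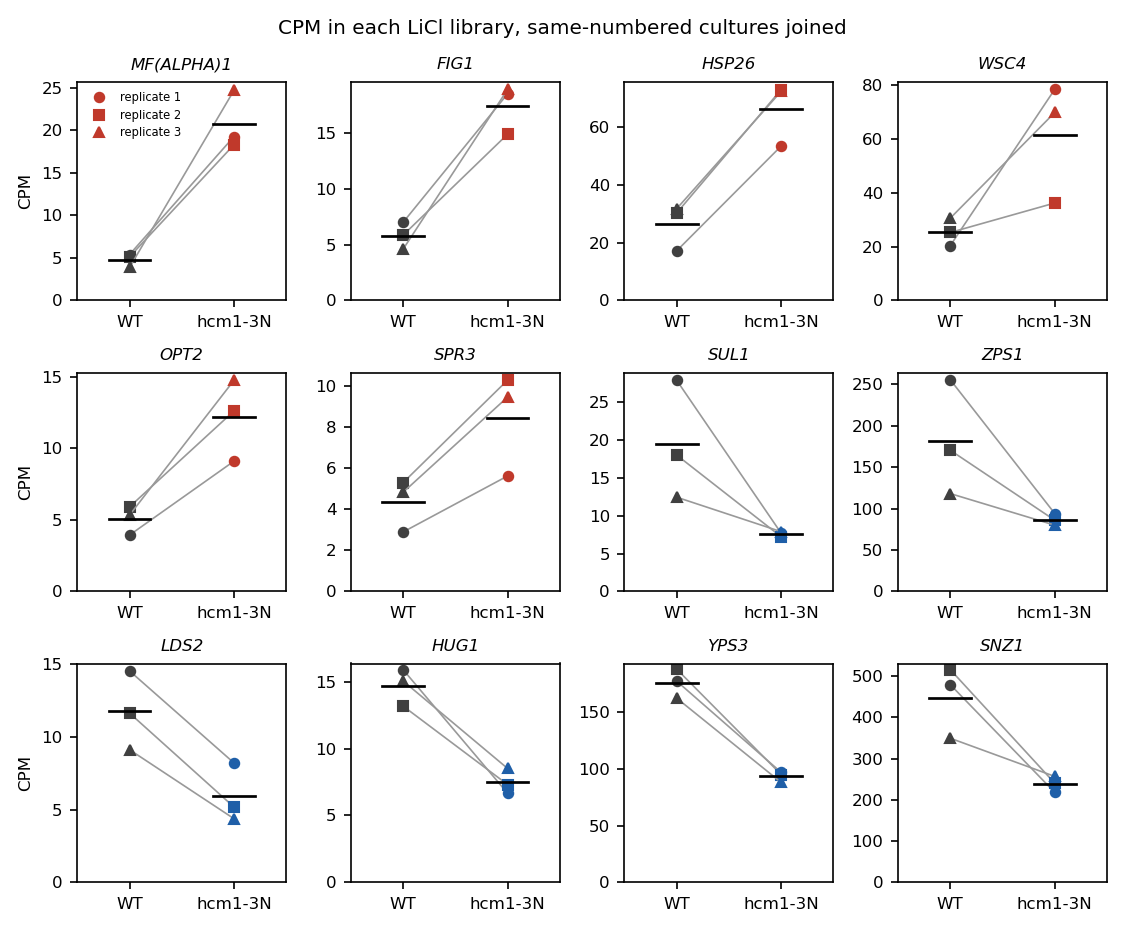
CPM in each of the 6 LiCl libraries (vertical axis, starting at 0) for the 6 genes with the largest rise and the 6 with the largest fall by the same rule. Grey lines join same-numbered cultures, circles, squares and triangles are replicates 1, 2 and 3, and short bars are group means. The groups do not overlap in any panel, and in *WSC4* the second mutant culture is nearest to WT.

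The upstream stretches of the 3 largest rises and 3 largest falls by rule (genes with a name, the same sign in 3 of 3 pairs and a mean of at least 5 CPM over the 6 libraries), 250 to 101 bases before the start codon, are shown to let the letters be seen at the genes that moved most. They read 5′ to 3′ on the gene's strand, and capitals mark, on either strand, the letters of the 6 motifs searched, those of Gcn4 and Cbf1 given above and the others named after the stretches.
MF(ALPHA)1 (chrXVI:193398-193547, plus strand): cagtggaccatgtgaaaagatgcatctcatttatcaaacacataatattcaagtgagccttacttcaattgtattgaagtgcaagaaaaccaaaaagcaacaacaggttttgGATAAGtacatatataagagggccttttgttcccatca
FIG1 (chrII:316718-316867, plus strand): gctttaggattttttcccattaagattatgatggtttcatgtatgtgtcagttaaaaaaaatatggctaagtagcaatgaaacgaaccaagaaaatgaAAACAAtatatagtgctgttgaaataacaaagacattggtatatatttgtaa
HSP26 (chrII:381780-381929, plus strand): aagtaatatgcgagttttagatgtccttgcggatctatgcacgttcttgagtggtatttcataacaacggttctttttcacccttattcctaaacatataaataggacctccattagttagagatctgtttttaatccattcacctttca
SUL1 (chrII:788985-789134, plus strand): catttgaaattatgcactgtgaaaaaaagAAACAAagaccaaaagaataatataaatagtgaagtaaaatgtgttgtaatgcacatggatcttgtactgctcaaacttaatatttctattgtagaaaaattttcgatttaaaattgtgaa
ZPS1 (chrXV:34408-34557, plus strand): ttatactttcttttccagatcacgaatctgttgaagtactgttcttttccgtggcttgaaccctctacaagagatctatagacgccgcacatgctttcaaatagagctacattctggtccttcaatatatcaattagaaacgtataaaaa
LDS2 (chrXV:242848-242997, minus strand): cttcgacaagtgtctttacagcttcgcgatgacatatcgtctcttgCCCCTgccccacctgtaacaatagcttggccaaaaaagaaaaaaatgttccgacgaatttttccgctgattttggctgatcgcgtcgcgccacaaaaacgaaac
The forkhead core AAACAA was found once each in the shown stretches of *FIG1* and *SUL1*, which moved in opposite directions. These stretches leave out part of the windows searched, which held more matches. The full window of *FIG1* held AAACAA 6 times, that of *HSP26* 3 times and that of *LDS2* 0 times. In *MF(ALPHA)1*, *SUL1* and *ZPS1* it was found 1 time each. Over the full windows AAACAA occurred in 40 of 63 higher genes (63.5%), 38 of 113 lower genes (33.6%) and 2717 of all 6001 protein-coding genes (45.3%). The longer GTAAACA was in 9.52%, 8.85% and 6.55%, AGGGG, the element of Msn2 and Msn4, in 19.05%, 15.9% and 21.6%, and GATAAG, of the GATA factors, in 20.6%, 23.0% and 14.7% of these sets. AAACAA and GTAAACA can overlap, and a match says nothing of binding.

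Of 21 genes for lithium, sodium and potassium transport 1 passed (4.76%, where 3.04% of all genes tested did). This was *SIS2*, also called *HAL3*, the inhibitor of the phosphatase Ppz1. It was lower in *hcm1-3N* (78.5, 77.0 and 80.7 CPM against 68.8, 63.3 and 52.3 CPM, log2 fold change -0.36, adjusted p = 0.043), with the third mutant culture lowest, and it passed in none of the fits that left out 1 library. *ENA1*, the sodium and lithium pump, measured 57.7, 79.3 and 59.4 CPM in WT and 34.3, 45.8 and 49.5 CPM in the mutant (-0.59 ± 0.37, adjusted p = 0.513). Its cultures did not overlap, but the error was wide. None of 19 calcineurin and calcium genes, 24 glycerol and HOG pathway genes, 123 ribosome biogenesis genes, 138 cytosolic ribosomal protein genes, 42 spindle and kinetochore genes outside the targets or 38 genes of mitosis and cytokinesis passed. No gene passed in 15 of 50 lists, and in the list of the mitochondrial genome none was tested.

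Small shifts of whole lists were seen where few single genes passed. Of 45 nuclear genes of oxidative phosphorylation 37 had a positive log2 fold change (median 0.15) and 1, *COX4*, passed. Of 71 mitochondrial ribosomal protein genes 64 were positive (median 0.13) and 1, *MNP1*, passed. Of 37 proteasome genes 34 were negative (median -0.13) and 1, *ECM29*, a proteasome adaptor, passed. Over all genes tested 2904 were positive and 3239 negative. In pair 3 the mitochondrial ribosomal median was 0.00, with 34 of 71 genes negative.

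**Figure D3:**
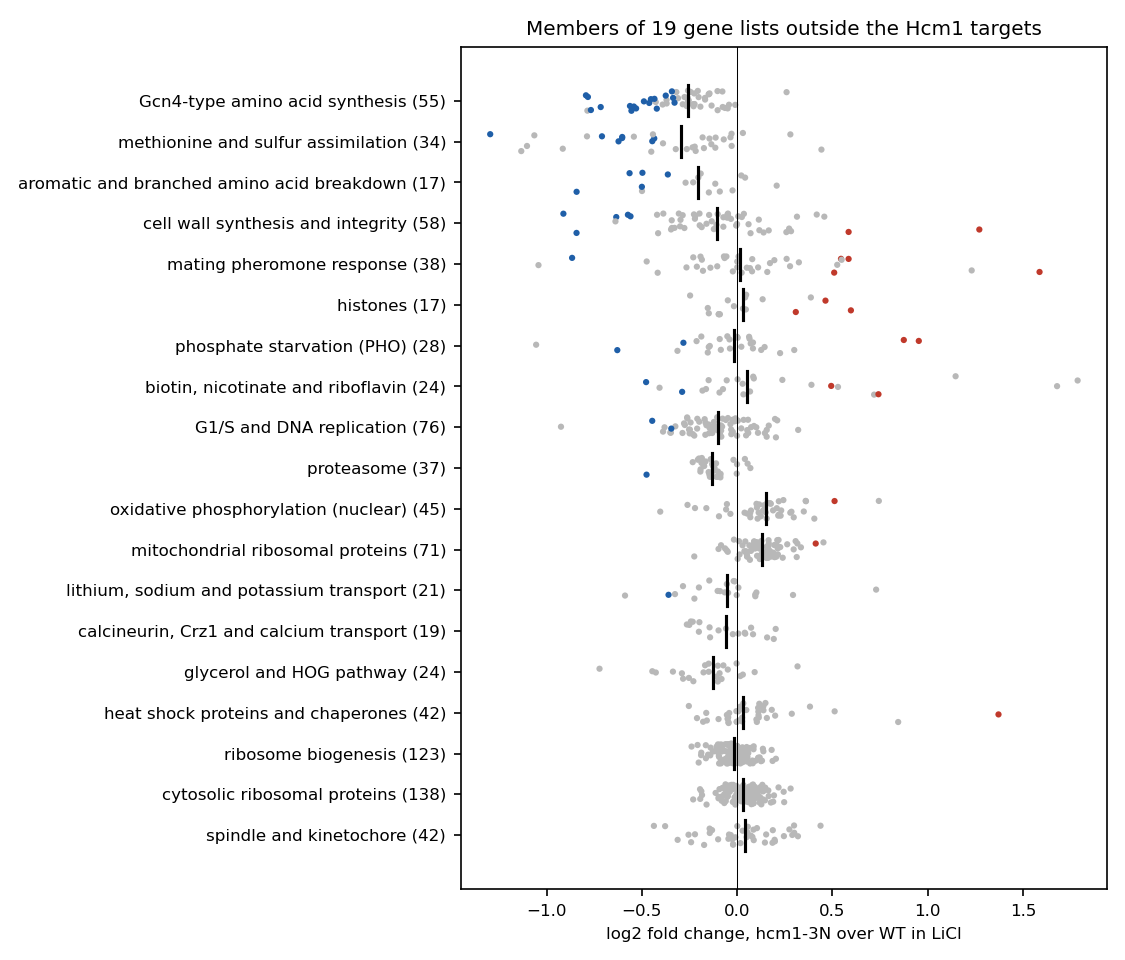
Log2 fold change of *hcm1-3N* over WT in LiCl (horizontal axis) of each tested gene outside the Hcm1 targets in 19 of the 50 lists (vertical axis, number of genes in brackets). Red and blue points are genes higher and lower at an adjusted p under 0.05, grey points the others, and black bars are medians, which run from -0.29 for the sulfur list to 0.15 for oxidative phosphorylation.

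In control medium the same strains differed in more genes. There 1377 of the 6143 genes (22.4%) passed, 670 (10.9%) higher and 707 (11.5%) lower in *hcm1-3N*, and 464 (7.55%) passed without the block. Of the 187 genes called in LiCl, 96 also passed in control medium, 94 of them in the same direction, and 166 of the 187 had the same sign. The median log2 fold change of the 71 higher genes was 0.55 in LiCl and 0.45 in control medium, and that of the 116 lower genes was -0.57 and -0.33. The control cultures were separate cultures of the same strains, and their values were not in the contrast that chose the genes, but their counts entered the shared fit, and so the spread and the block behind the LiCl p-values. *FIG1* averaged 3.01 CPM in WT and 10.5 CPM in *hcm1-3N* in control medium, *HSP26* 27.6 and 86.6 CPM, *OPI3* 1325 and 2261 CPM, *SLT2* 398 and 215 CPM and *PRM5* 224 and 106 CPM, all past the threshold in the direction seen in LiCl. In the amino acid list 20 of 55 genes were lower and 1 higher in control medium, and in the sulfur list 19 of 34 were lower. In contrast, *HUG1* and *YPS3* had log2 fold changes of -0.17 and -0.21 in control medium and did not pass there.

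Whether the strain difference itself depended on LiCl was tested as an interaction. With the block 39 of 6143 genes (0.635%) passed, 35 (0.57%) with a log2 fold change that was lower in LiCl than in control medium and 4 (0.0651%) with a higher one, and 7 of the 39 were among the 187. Of these 7, 6 are named here, *AAD16*, *FMP52*, *FUR4*, *PHO91*, *SPO11* and *YML131W*. *SPO11* averaged 8.49 and 9.24 CPM in control medium and 5.31 and 9.48 CPM in LiCl in WT and *hcm1-3N*, and the difference of its log2 fold changes was 0.71 (adjusted p = 0.0456). *FUR4*, the uracil permease, was higher in *hcm1-3N* in control medium (0.45) and lower in LiCl (-0.43, interaction adjusted p = 0.041). The interaction calls were fragile. None passed by edgeR without the block, although 691 genes had an unadjusted p under 0.05 there, while DESeq2 with the block called 284. Leaving out 1 of the 12 libraries left 0 or 1 gene in 11 of the fits and 464 without *hcm1-3N* LiCl replicate 3. An effect called in 1 medium only was therefore in most cases not shown to differ between media.

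**Figure D4:**
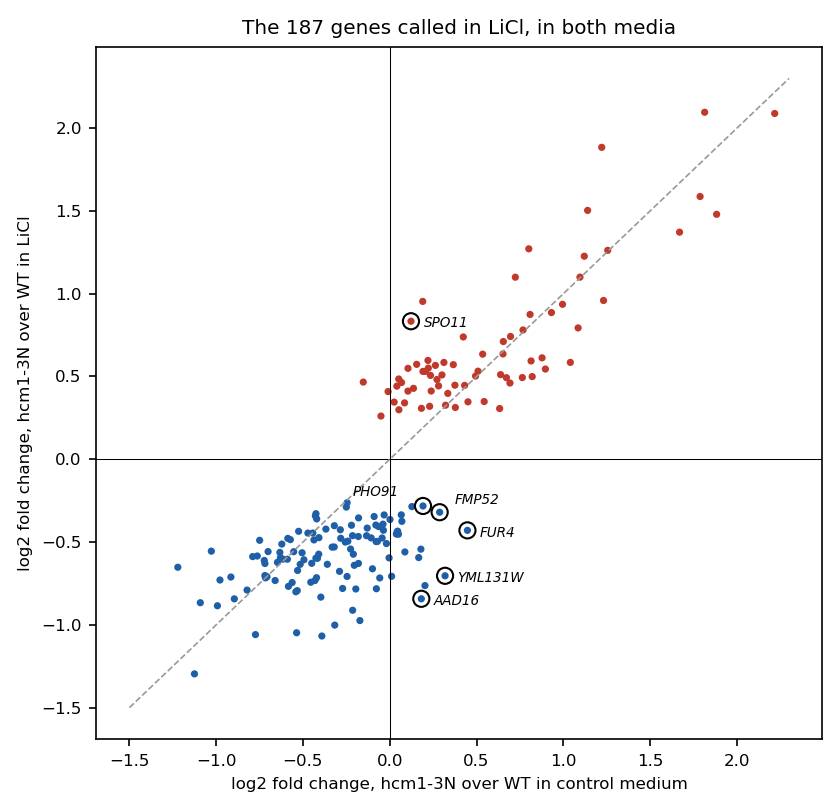
Log2 fold change of *hcm1-3N* over WT in LiCl (vertical axis) against that in control medium (horizontal axis) for the 187 genes called in LiCl. Red points are the 71 higher and blue points the 116 lower genes, circles mark 6 of the 7 genes with an adjusted p under 0.05 for the interaction, and the dashed line marks equal values. The sign is the same in both media for 166 genes.

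The *hcm1-8E* strain, in which CDK sites of the activation domain are replaced by glutamic acids, was grown beside the other strains and shares the WT libraries with the comparison above. Against WT in LiCl, 19 of the 6143 genes (0.309%) passed in this strain, and 2 of them were among the 187. *SUL1* averaged 28.1 ± 10.1 CPM (SD, n = 3) in *hcm1-8E*, 19.4 ± 7.82 in WT and 7.60 ± 0.34 in *hcm1-3N*. *FIG1* averaged 5.42 ± 1.45, 5.83 ± 1.21 and 17.5 ± 2.22 CPM, *SLT2* 236 ± 53.5, 271 ± 21.1 and 151 ± 26.1 CPM, and *LYS1* 150 ± 26.1, 150 ± 6.45 and 87.4 ± 24.5 CPM in the same order. For these 4 genes, which are examples, the *hcm1-8E* mean was nearer to WT than to *hcm1-3N*. *HCM1* did not follow this pattern, as it was lower than in WT in both mutants and lowest in *hcm1-8E*. There it stood at 163, 135 and 142 CPM, below every WT and *hcm1-3N* library, and *URA3* at 536, 466 and 632 CPM. Of the 116 lower genes 45 had a negative log2 fold change in *hcm1-8E* against WT, and of the 71 higher genes 42 had a positive one. The shares of all genes tested with these signs are not given here. The genes were chosen on the same WT libraries, which ties the signs of both contrasts together. No likeness or difference of the mutants is therefore read from these counts.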

How the data were processed

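RNA was polyA-selected and sequenced as strand-specific, paired-end libraries. Reads were aligned by the authors to R64-1-1 and assigned to genes with featureCounts at a mapping quality above 20, and the raw counts per gene were deposited with a second table of TPM made by the authors. The strand setting of the counting is not given in the sources used here. Total counts of the 18 libraries ran from 18816441 to 21851012, and a floor of 3 counts corresponded to 0.137 to 0.138 CPM in the 6 LiCl libraries. That floor covers counting error only.

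Counts were analysed in R 4.3.3 with edgeR 4.0.16 (TMM, filterByExpr, robust quasi-likelihood fit of all 18 libraries, group plus replicate block, 10 residual degrees of freedom, prior count 2). Benjamini-Hochberg adjustment ran over all 6239 genes tested, at a threshold of 0.05. The 187 genes include only genes outside the 96 targets. Replicate numbers were used as pairs by the rule of this work. Same-numbered cultures deviated together (r = 0.89, 0.72 and 0.54 in LiCl, 0.79, 0.57 and 0.37 in control medium). Replicates 2 and 3 did so across numbers too (0.69 and 0.70 in LiCl, 0.51 and 0.39 in control medium), so only replicate 1 was set apart. No LiCl replicate of WT or *hcm1-3N* was a duplicate of another by a chi-square comparison of counts. Scripts were tested on simulated counts. P-values measure the spread between these cultures, which may be technical in part. Alternatives used no block, DESeq2 1.42.0 and its size factors, no filter or at least 10 CPM in 3 libraries, only the compared libraries, limma 3.58.1 on log2(TPM + 1) and log2(TPM + 0.1), and each replicate left out.

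The genes, lists and tests were chosen with earlier results of these data known. Named genes were the strain checks, the 10 largest changes and the 5 smallest p in each direction among named genes with the same sign in 3 of 3 pairs and at least 5 CPM on average, up to 2 called genes per list and direction, and interaction genes. Other genes of a list or pathway were named after their values were seen. Promoter letters were searched from 250 bases before to 50 after the start, and shorter stretches are shown than the window searched. Of the 187 genes, 177 had coordinates in the annotation. Some items are not reported here.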

Additional observations from a re-analysis of the deposited data

Results flagged for a closer look

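For 11 genes the log2 fold change of *hcm1-3N* over WT differed between LiCl and control medium by the interaction test of edgeR with the replicate block, 6 of them among the 187 genes called in LiCl and 5 chosen by the size of the difference. The values are the log2 fold change in LiCl minus that in control medium, with 3 cultures per group. *AAD16* had -1.02 (adjusted p = 0.0447), *YML131W* -1.02 (0.0447), *FUR4* -0.88 (0.041), *FMP52* -0.61 (0.0345) and *PHO91* -0.47 (0.0464). *SPO11* had 0.71 (0.0456), *RPL8A*, a ribosomal protein gene with a near-identical copy, 0.70 (0.0456), and *ADE1*, of purine synthesis, 0.67 (0.0345). *AQY2*, an aquaporin gene, had -1.09 (0.041) and the adjacent frame *YLL053C* -1.23 (0.0345), while *YHR182C-A* had -1.85 (0.0456). The *AQY2* and *YLL053C* differences lay in control medium, where their log2 fold changes were 1.14 and 1.35, against 0.05 and 0.12 in LiCl. None of these calls held without the block.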

How the results depend on the processing

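The counts of calls moved with the replicate block: without the replicate block 44 genes passed in LiCl, 464 in control medium and 0 for the interaction. DESeq2 called 292 genes in LiCl and 284 for the interaction, and fits of only the compared libraries called 3015 in control medium and 6 for the interaction. The interaction gave 0 genes without a filter on low counts and 0 by limma on either TPM scale (1267, 1136 and 1139 genes at an unadjusted p under 0.05). Leaving out 1 library or 1 replicate number gave 1 to 215 genes in LiCl, 99 to 1062 in control medium and 0 to 464 for the interaction. The other alternatives gave 139 to 275 genes in LiCl and 1315 to 1480 in control medium. On TPM the control split moved from 670 higher and 707 lower to 464 and 851 (pseudocount 1) or 470 and 860 (0.1). All 187 LiCl genes kept their direction in every alternative in which they were tested. *GAL1*, at -0.07, ran from -0.16 to 0.0086 when 1 library was left out and reached 0.0042 without replicate 3, where its sign turned. The cause of these shifts was not tested. Fits without the replicate 2 pair or without WT LiCl replicate 2 called 1 and 27 genes.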

Other observations

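Some Gag-Pol genes of the Ty retrotransposons were lower in *hcm1-3N* in LiCl. Of 45 annotated copies 35 were tested, and 6 were lower and none higher, where 1.89% of all genes tested were lower. A negative log2 fold change was seen in 28 of the 35 (median -0.23), where 3239 of all 6143 genes had one. In control medium 10 of the 35 were lower (median -0.37), where 11.5% of all genes tested were. The copies are nearly identical, so that reads can be divided among them, and the values are uncertain for any single copy.

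The unnamed gene *YIR042C* rose from 13.9, 17.0 and 13.3 CPM to 30.2, 30.9 and 33.3 CPM (log2 fold change 1.10 ± 0.10, adjusted p = 5.75e-05 by edgeR). *RDN5-1*, a 5S ribosomal RNA gene, had 1.503 ± 0.23 (adjusted p = 0.00372), a value from libraries selected for polyA RNA and from a repeated gene. Both were chosen after their values were seen.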
